A study of Mus musculus with 9 samples.

Results

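The genes described here are 9 muscle regulators and identity genes of mouse myoblasts: Myod1, Myf5, Myog, Myf6, Mymk, Cdh15, Six4, Pax7 and Msc. They were chosen by name and not by a rule on measured values, though with earlier results of these data known. Each is represented by the probe sets whose array annotation gives exactly 1 gene symbol, that of a member or its older name. Mymk was found under the older symbol 1110002H13Rik. The 9 genes had 78 probe sets, out of 22071 genes and 316997 probe sets named in this way. After a filter on weak signals 56 of the 78 probe sets remained, and 7 of the 9 genes were among the 12646 genes tested. Myog, with 2 probe sets kept of 4, and Myf6, with 0 of 5, fell below the 3 kept probe sets that a test required.

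RNA of C2C12 cells, an established mouse myoblast line, was measured on whole-transcript exon arrays 48 h after transfection with an siRNA. The 3 groups were Cugbp1 siRNA, Mbnl1 siRNA and control siRNA, with 3 arrays each, and all cells were kept in growth medium with serum rather than in differentiation medium. Cugbp1, now named Celf1, and Mbnl1 encode RNA-binding proteins that act on splicing and on mRNA stability in muscle. The sources do not say whether the replicates were separate cultures, so a p-value here covers the spread from array to array, and that spread may be technical.

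Myod1, Myf5, Myog and Myf6 are the muscle regulatory factors, basic helix-loop-helix proteins that pair with E proteins and bind E-boxes, the DNA letters CANNTG. Myf5 and Myod1 mark committed myoblasts, and Myog and Myf6 act during differentiation. Pax7 marks muscle stem cells, Six4 is a homeobox factor upstream of the regulatory factors, and Msc (MyoR) is a helix-loop-helix repressor found in undifferentiated myoblasts. Cdh15 encodes M-cadherin, which holds muscle cells together, and Mymk encodes myomaker, a membrane protein needed for myoblasts to fuse.

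RefSeq promoter windows, from 250 bases before to 50 bases after the start of a gene in build GRCm38.p6, were matched for 5 of the 9 genes (Myf5, Myog, Cdh15, Six4 and Pax7). They were searched for the E-box CANNTG, which reads the same on both strands, and 72.3% of 32851 mouse windows of the same length hold at least 1. Below are the window of Cdh15, which rose after Cugbp1 siRNA, that of Myf5, which fell after Mbnl1 siRNA, and that of Myog for comparison. Each is given 5′ to 3′ on the strand of its gene with the E-boxes in capitals. The Cdh15 window is chr8:122848124-122848423 on the plus strand, the Myf5 window is chr10:107486085-107486384 on the minus strand and the Myog window is chr1:134289754-134290053 on the plus strand.
Cdh15: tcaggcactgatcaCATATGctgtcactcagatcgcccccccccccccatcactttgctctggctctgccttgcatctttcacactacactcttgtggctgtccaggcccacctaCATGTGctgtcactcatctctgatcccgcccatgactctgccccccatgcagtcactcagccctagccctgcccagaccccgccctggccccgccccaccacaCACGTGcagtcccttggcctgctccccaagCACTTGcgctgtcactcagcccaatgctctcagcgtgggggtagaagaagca
Myf5: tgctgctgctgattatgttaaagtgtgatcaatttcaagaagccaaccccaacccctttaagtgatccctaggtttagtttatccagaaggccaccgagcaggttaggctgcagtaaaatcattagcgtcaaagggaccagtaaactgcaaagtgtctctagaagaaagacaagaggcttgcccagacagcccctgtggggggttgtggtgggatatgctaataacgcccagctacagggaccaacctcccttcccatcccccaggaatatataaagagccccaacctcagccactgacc
Myog: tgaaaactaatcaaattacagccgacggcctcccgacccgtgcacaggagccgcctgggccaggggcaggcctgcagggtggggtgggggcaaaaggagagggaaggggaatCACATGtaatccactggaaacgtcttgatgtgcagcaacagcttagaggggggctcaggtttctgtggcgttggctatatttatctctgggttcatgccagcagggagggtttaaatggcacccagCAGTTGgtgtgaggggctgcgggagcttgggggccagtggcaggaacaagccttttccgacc
The Cdh15 window holds 4 E-boxes, whose first letters lie at -236, -135, -32 and -2 from the start. At least as many are found in 6.49% of all windows. This count treats all middle letters alike and does not weigh which of them a muscle regulatory factor prefers. None of the 4 reads CAGCTG, a form present in 16.3% of all windows. None reads CACCTG on either strand, a form present in 20.2% of windows. The E-box at -32 reads CACGTG, a form present in 7.15% of windows. The Myog window holds 2, at -138 and -12, and at least as many are found in 39.6% of windows. The windows of Myf5, Pax7 and Six4 (which has 2 windows) hold 0. A match describes the letters and not a bound site.

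A gene value is the log2 intensity of the kept probe sets of a gene on an array, combined by median polish, and 1 unit is a doubling. Differences were tested with limma over all 9 arrays and called where the p-value, adjusted by Benjamini-Hochberg across 12646 genes, was under 0.05. The targeted genes fell in the arrays labelled for them: Celf1 to 36.4% of control after Cugbp1 siRNA (adjusted p = 9.007e-07) and Mbnl1 to 39.3% of control after Mbnl1 siRNA (adjusted p = 3.965e-07). Median intensities over all probe sets were 42.3 to 42.8 on Cugbp1 siRNA arrays, 42.5 to 42.9 on Mbnl1 siRNA arrays and 43.6 to 43.8 on control arrays. The median gene value ran the other way, at 8.57 to 8.62 after Cugbp1 siRNA, 8.57 to 8.61 after Mbnl1 siRNA and 8.51 to 8.52 after control siRNA. Because of this, results that change when arrays are centred on that median, an alternative added after the data were seen, are named with each gene. Mbnl1 siRNA replicate 2 stood apart for these genes: it was the lowest of its group in 6 of the 7 tested genes, with a median deviation of -0.11 from the group mean, against -0.01 over all genes. In RNA from whole cultures, fewer cells of a type and less RNA per cell cannot be told apart.

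After Cugbp1 siRNA, 4 of the 7 tested genes rose: Myod1, Cdh15, Mymk and Six4. Over all genes, 38.7% were called in this comparison, 26.0% higher and 12.7% lower. After Mbnl1 siRNA, Six4 rose and Myf5 fell, which is 2 of 7 genes against 41.5% of all genes, with 26.9% higher and 14.6% lower. Mymk and Cdh15 were higher after Cugbp1 siRNA than after Mbnl1 siRNA, which is 2 of 7 against 9.34% of all genes (4.27% higher and 5.07% lower). With so many genes called against control, the counts of 4 and 2 in 7 are not results about this gene set. The arrays of the groups did not overlap for 5, 3 and 2 of the 7 genes in the 3 comparisons, where 48.8%, 57.5% and 29.5% of all genes did not. The median log2 difference of the 7 was 0.18, 0.01 and 0.14, against 0.05, 0.04 and 0.01 over all genes. Both comparisons with control share the same 3 control arrays.

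**Figure D1:**
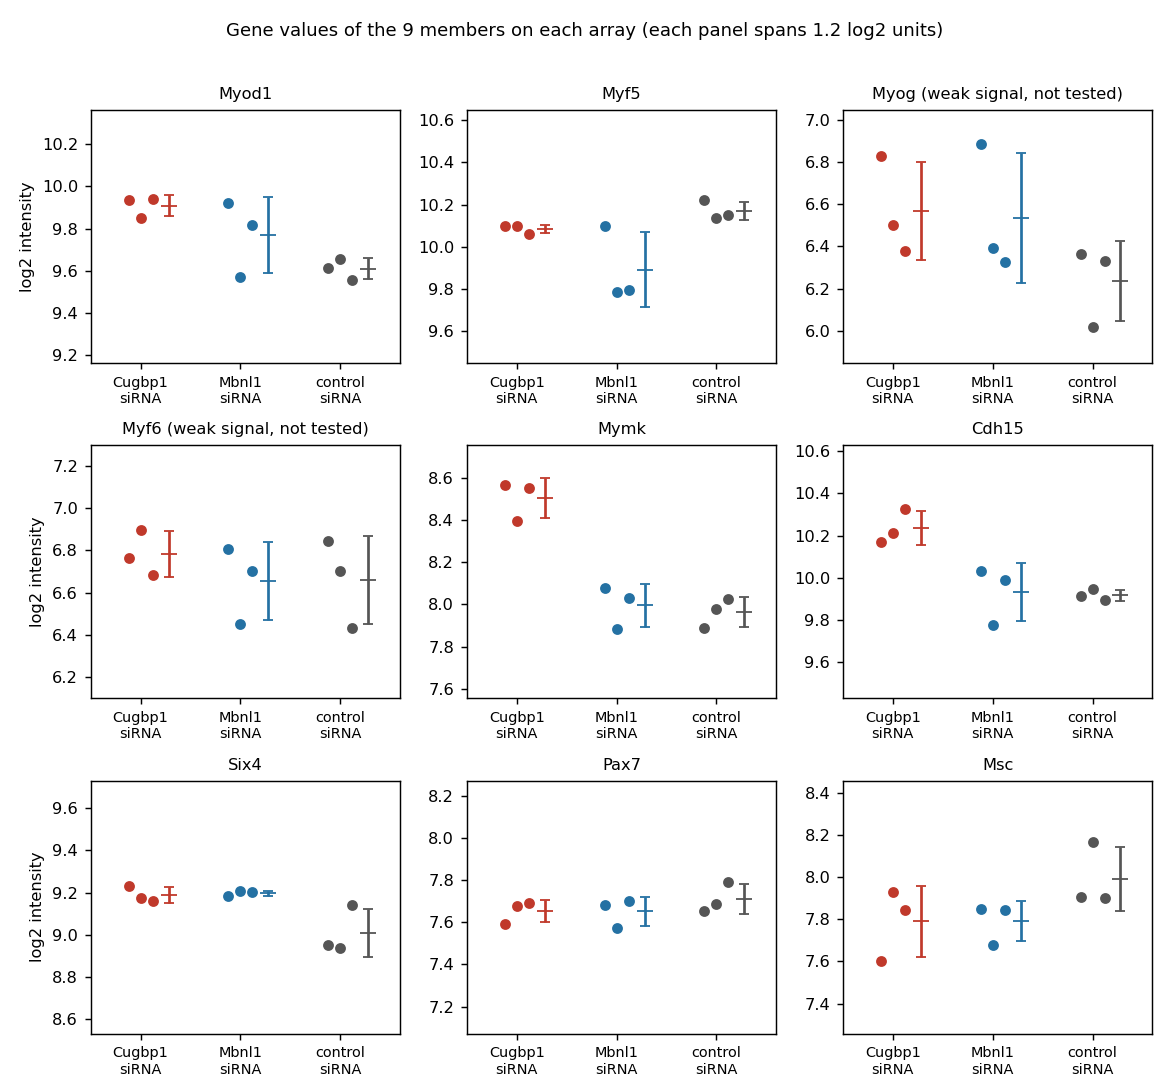
Gene values (log2 intensity) of the 9 genes on each array, with Cugbp1 siRNA, Mbnl1 siRNA and control siRNA from left to right, points for arrays and bars for the mean and SD of 3 arrays. The panels share the same span. Mymk and Cdh15 after Cugbp1 siRNA lie above all 6 other arrays, and the Mbnl1 siRNA array in the middle of its group (replicate 2) is the lowest of its group in 7 of the 9 panels.

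Myod1, the factor that commits cells to muscle, stood at 9.93, 9.85 and 9.94 after Cugbp1 siRNA, at 9.92, 9.57 and 9.82 after Mbnl1 siRNA and at 9.61, 9.66 and 9.56 after control siRNA. All 3 Cugbp1 siRNA arrays lay above all control arrays, and the Mbnl1 siRNA arrays spanned both groups. The group means were 9.91 ± 0.05 after Cugbp1 siRNA, 9.77 ± 0.18 after Mbnl1 siRNA and 9.61 ± 0.05 after control siRNA (SD, n = 3 each). Myod1 rose 1.23-fold after Cugbp1 siRNA (95% interval 1.09 to 1.39, log2 difference 0.30, SE 0.08, limma adjusted p = 0.0142), and all 7 of its probe sets were higher than in control. After Mbnl1 siRNA the log2 difference was 0.16 (adjusted p = 0.125). It was 0.26 (adjusted p = 0.00918) without Mbnl1 siRNA replicate 2; the call depends on that array. Between the siRNAs the log2 difference was 0.14 (95% interval -0.03 to 0.31, adjusted p = 0.313).

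Myf5, the first of the 4 factors to appear in the embryo, did not follow Myod1. It stood at 10.10, 10.10 and 10.06 after Cugbp1 siRNA, at 10.10, 9.79 and 9.79 after Mbnl1 siRNA and at 10.22, 10.14 and 10.15 after control siRNA. Every siRNA array was below every control array, with the lowest values on Mbnl1 siRNA replicates 2 and 3. Myf5 averaged 10.09 ± 0.02 after Cugbp1 siRNA, 9.89 ± 0.18 after Mbnl1 siRNA and 10.17 ± 0.04 after control siRNA (SD, n = 3 each). Myf5 fell by 17.5% after Mbnl1 siRNA (log2 difference -0.28, 95% interval -0.45 to -0.11, SE 0.08, limma adjusted p = 0.0147), and all 7 probe sets were lower. The call was lost without Mbnl1 siRNA replicate 2 (log2 difference -0.23, adjusted p = 0.0575) and without replicate 3 (-0.23, adjusted p = 0.0615). After Cugbp1 siRNA the log2 difference was -0.09 (95% interval -0.25 to 0.08, adjusted p = 0.387), and 7 of 7 probe sets lay below control by up to 0.21. Between the siRNAs Myf5 differed by 0.19 (95% interval 0.03 to 0.36, adjusted p = 0.152). That difference was 0.30 (adjusted p = 0.0103) without Mbnl1 siRNA replicate 1, the array on which Myf5 was high.

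Myog, which switches on differentiation genes, gave a weak signal and was not tested. Over all its 4 probe sets it stood at 6.83, 6.50 and 6.38 after Cugbp1 siRNA, at 6.89, 6.39 and 6.33 after Mbnl1 siRNA and at 6.36, 6.02 and 6.33 after control siRNA. The Mbnl1 siRNA arrays overlapped the controls while the Cugbp1 siRNA arrays all lay above them. Its 2 probe sets above the filter went opposite ways: 4713735 differed from control by 0.35 after Cugbp1 siRNA and 0.17 after Mbnl1 siRNA, and 4832651 by -0.32 and -0.35. The 2 weaker ones were higher than control, by up to 0.79. In a fit with no filter, the log2 difference was 0.33 after Cugbp1 siRNA (adjusted p = 0.192) and 0.30 after Mbnl1 siRNA (adjusted p = 0.226). Myf6, a factor of late differentiation, stood at 6.77, 6.90 and 6.68 after Cugbp1 siRNA, at 6.81, 6.45 and 6.70 after Mbnl1 siRNA and at 6.84, 6.70 and 6.43 after control siRNA. Its groups overlapped, and no difference of Myf6 was detectable at these signals, with adjusted p-values of 0.490 and 0.979 in the unfiltered fit.

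Six4, a homeobox factor that acts with Eya proteins on the promoters of muscle regulatory factors, had a higher gene value after either siRNA. It stood at 9.23, 9.17 and 9.16 after Cugbp1 siRNA, at 9.18, 9.21 and 9.20 after Mbnl1 siRNA and at 8.95, 8.94 and 9.14 after control siRNA. The siRNA arrays lay above the controls, by little in the case of control replicate 3. Its probe sets did not all follow. The one with by far the strongest signal, 5468019, was lower on every siRNA array than on any control array. After Cugbp1 siRNA 7 of 10 were higher than control, with log2 differences of -0.23 to 0.57. After Mbnl1 siRNA 8 of 10 were higher, with differences of -0.28 to 0.55. Six4 averaged 9.19 ± 0.04 after Cugbp1 siRNA, 9.20 ± 0.01 after Mbnl1 siRNA and 9.01 ± 0.11 after control siRNA (SD, n = 3 each). The rise was 1.13-fold after Cugbp1 siRNA (log2 difference 0.18, SE 0.06, limma adjusted p = 0.0316) and 1.14-fold after Mbnl1 siRNA (0.19, SE 0.06, adjusted p = 0.0225). These were the least stable calls among the 7 genes. After Cugbp1 siRNA the call was lost without control replicate 1 or 2 (adjusted p = 0.101 and 0.0985) and without Cugbp1 siRNA replicate 1, 2 or 3 (0.0696, 0.0632 and 0.0543). After Mbnl1 siRNA it was lost without control replicate 1 or 2 (0.0777 and 0.0757) and without Mbnl1 siRNA replicate 2 or 3 (0.0606 and 0.0628). With arrays centred on the median gene value, the difference was 0.10 after Cugbp1 siRNA (adjusted p = 0.240) and 0.11 after Mbnl1 siRNA (adjusted p = 0.158). The siRNAs differed from each other by -0.01 (95% interval -0.14 to 0.11).

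Pax7, the stem cell factor, stood at 7.59, 7.68 and 7.69 after Cugbp1 siRNA, at 7.68, 7.57 and 7.70 after Mbnl1 siRNA and at 7.65, 7.69 and 7.79 after control siRNA. The groups overlapped, and the differences from control after Cugbp1 and Mbnl1 siRNA were both -0.06 (limma adjusted p = 0.431 and 0.404). With arrays centred on the median gene value they were -0.14 (adjusted p = 0.0483) and -0.13 (adjusted p = 0.0458), both past the threshold. Msc, the repressor, stood at 7.60, 7.93 and 7.84 after Cugbp1 siRNA, at 7.85, 7.68 and 7.84 after Mbnl1 siRNA and at 7.90, 8.16 and 7.90 after control siRNA. The Mbnl1 siRNA arrays were all below the controls, while Cugbp1 siRNA replicate 2 reached into them. The differences of Msc from control after Cugbp1 and Mbnl1 siRNA were both -0.20 (95% interval -0.41 to 0.01 in both, adjusted p = 0.120 and 0.118). Its 3 kept probe sets were lower in both comparisons, by 0.26 to 0.36 after Cugbp1 siRNA and by 0.04 to 0.66 after Mbnl1 siRNA. As the mean of those probe sets the gene differed by -0.32 (adjusted p = 0.00583) and -0.38 (adjusted p = 0.0022), and with arrays centred on the median gene value by -0.28 (adjusted p = 0.0318) and -0.27 (adjusted p = 0.0301). The call for Msc thus depends on how its probe sets are combined and how arrays are scaled.

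Mymk, the fusion protein, had the largest difference of the 7 genes after Cugbp1 siRNA, from control and from Mbnl1 siRNA. It stood at 8.57, 8.39 and 8.55 after Cugbp1 siRNA, at 8.08, 7.88 and 8.03 after Mbnl1 siRNA and at 7.89, 7.98 and 8.03 after control siRNA. The Cugbp1 siRNA arrays lay clear above all others, and the Mbnl1 siRNA arrays overlapped the controls. Mymk averaged 8.50 ± 0.10 after Cugbp1 siRNA and 7.96 ± 0.07 after control siRNA (SD, n = 3 each). Mymk rose 1.45-fold after Cugbp1 siRNA (95% interval 1.31 to 1.61, log2 difference 0.54, SE 0.07, limma adjusted p = 0.0005301). After Mbnl1 siRNA it differed by 0.03 (95% interval -0.12 to 0.18, adjusted p = 0.717). The direct test put Cugbp1 siRNA 1.42-fold above Mbnl1 siRNA (95% interval 1.28 to 1.58, log2 difference 0.51, adjusted p = 0.00146). The group means of all 4 kept probe sets were higher after Cugbp1 siRNA than in either other group. They rose by unequal amounts, with log2 differences from control of 0.16 to 0.98.

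Probe set 4684838 of Mymk, with the difference of 0.98, stood at 8.57, 8.26 and 8.12 after Cugbp1 siRNA, at 7.93, 7.19 and 7.33 after Mbnl1 siRNA and at 7.34, 7.06 and 7.59 after control siRNA. Probe set 4786608, with the difference of 0.16, stood at 9.53, 9.58 and 9.32 after Cugbp1 siRNA, at 9.03, 9.17 and 9.02 after Mbnl1 siRNA and at 9.27, 9.34 and 9.34 after control siRNA. The first separates Cugbp1 siRNA from both other groups, while the second overlaps the controls after Cugbp1 siRNA and lies below them after Mbnl1 siRNA. The second departed from the gene by -0.38 after Cugbp1 siRNA, without passing the test (adjusted p = 0.0814).

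Cdh15, the muscle cadherin, moved like Mymk at a smaller size. It stood at 10.17, 10.21 and 10.33 after Cugbp1 siRNA, at 10.03, 9.77 and 9.99 after Mbnl1 siRNA and at 9.91, 9.95 and 9.89 after control siRNA. Again the Cugbp1 siRNA arrays were above all 6 others, and the Mbnl1 siRNA arrays lay on both sides of the controls. Cdh15 averaged 10.24 ± 0.08 after Cugbp1 siRNA, 9.93 ± 0.14 after Mbnl1 siRNA and 9.92 ± 0.03 after control siRNA (SD, n = 3 each). Cdh15 rose 1.25-fold after Cugbp1 siRNA (95% interval 1.12 to 1.39, log2 difference 0.32, SE 0.07, limma adjusted p = 0.00602), with 14 of 15 probe sets higher and 9 of them with no overlap of arrays. After Mbnl1 siRNA it differed by 0.01 (95% interval -0.14 to 0.17, adjusted p = 0.882), with 8 of 15 probe sets higher. Cugbp1 siRNA was 1.23-fold above Mbnl1 siRNA (95% interval 1.11 to 1.37, log2 difference 0.30, adjusted p = 0.0213), and all 15 probe sets were higher. This last call was lost without Cugbp1 siRNA replicate 2 (log2 difference 0.32, adjusted p = 0.0536), without Cugbp1 siRNA replicate 3 (0.26, adjusted p = 0.062) and without Mbnl1 siRNA replicate 2 (0.23, adjusted p = 0.0578). The promoter window of Cdh15 is the one with 4 E-boxes. Whether a muscle regulatory factor binds any of them, and whether they have a part in the rise of Cdh15, was not tested. Over 18 alternative settings the rises of Myod1, Mymk and Cdh15 after Cugbp1 siRNA stayed called, with ranges of 0.22 to 0.34, 0.45 to 0.59 and 0.24 to 0.35 on the log2 scale. The highest limma adjusted p-values over these settings were 0.0488 for Myod1, just under the threshold, 0.00755 for Mymk and 0.0243 for Cdh15.

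**Figure D2:**
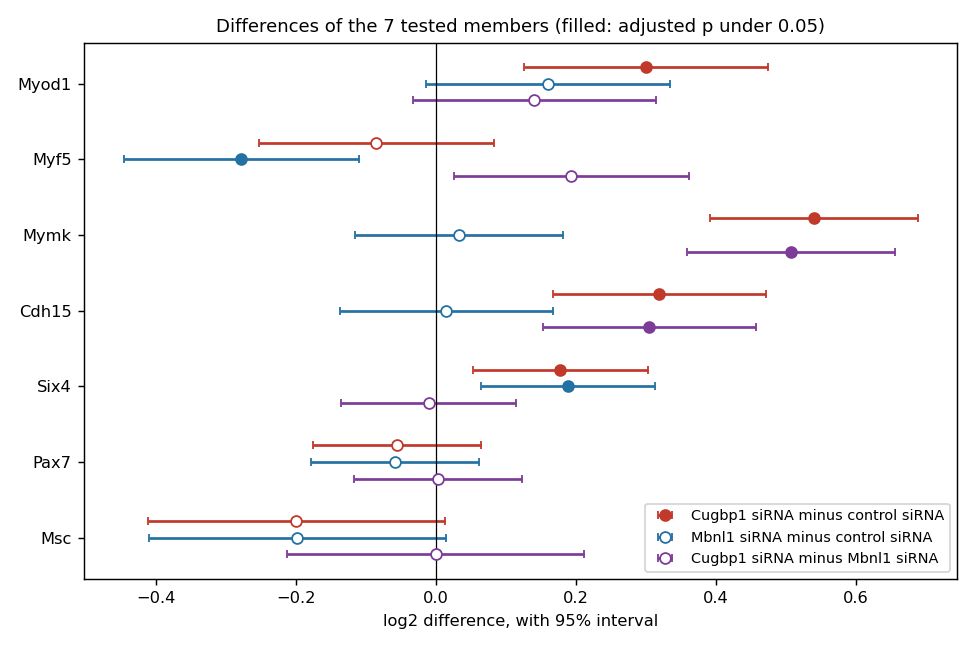
Log2 differences of the 7 tested genes with 95% intervals, for each siRNA against control and for Cugbp1 siRNA against Mbnl1 siRNA (filled points, adjusted p under 0.05). Mymk and Cdh15 have filled points at 0.54 and 0.32 after Cugbp1 siRNA and open points at 0.03 and 0.01 after Mbnl1 siRNA, while Myf5 is filled only after Mbnl1 siRNA, at -0.28.

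Exon arrays carry separate probe sets along a gene, so each kept probe set was also set against the value of its own gene, in the 6 genes with at least 4 kept. Of 51 probe sets, 1 departed from its gene after Cugbp1 siRNA, against 3.75% of all 158713 probe sets tested, and 3 did after Mbnl1 siRNA, against 6.98%. Between the siRNAs, limma called 0 of 51 (2 at an unadjusted p under 0.05, and 0 by diffSplice), against 0.0277% of all. These counts are not results about the set. Which exon a probe set covers was not determined, since the array coordinates were not used here.

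Probe set 5468019 of Six4 was the one called in both comparisons with control. With a mean of 13.02 it had the strongest signal of the 10 kept for Six4, where the next stood at 9.54. It stood at 12.87, 12.98 and 12.96 after Cugbp1 siRNA, at 12.86, 12.96 and 13.04 after Mbnl1 siRNA and at 13.09, 13.16 and 13.25 after control siRNA. It was thus lower on every siRNA array, by 0.23 and 0.22, while the gene as a whole was higher. Its departure from the gene was -0.40 in both comparisons (SE 0.07, limma adjusted p = 0.0160 and 0.0106). Probe set 4440253 of Six4 rose further than its gene after Mbnl1 siRNA, by 0.52 in all (departure 0.34, SE 0.09, adjusted p = 0.0436). In Cdh15, probe set 4719255 stood at 10.54, 10.40 and 10.46 after Cugbp1 siRNA, at 10.10, 9.89 and 10.04 after Mbnl1 siRNA and at 10.35, 10.50 and 10.59 after control siRNA. It was lower on all 3 Mbnl1 siRNA arrays than on any other, although the gene itself did not pass the test there. Its departure was -0.48 after Mbnl1 siRNA (SE 0.09, adjusted p = 0.0133) and -0.33 after Cugbp1 siRNA (adjusted p = 0.0735).

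**Figure D3:**
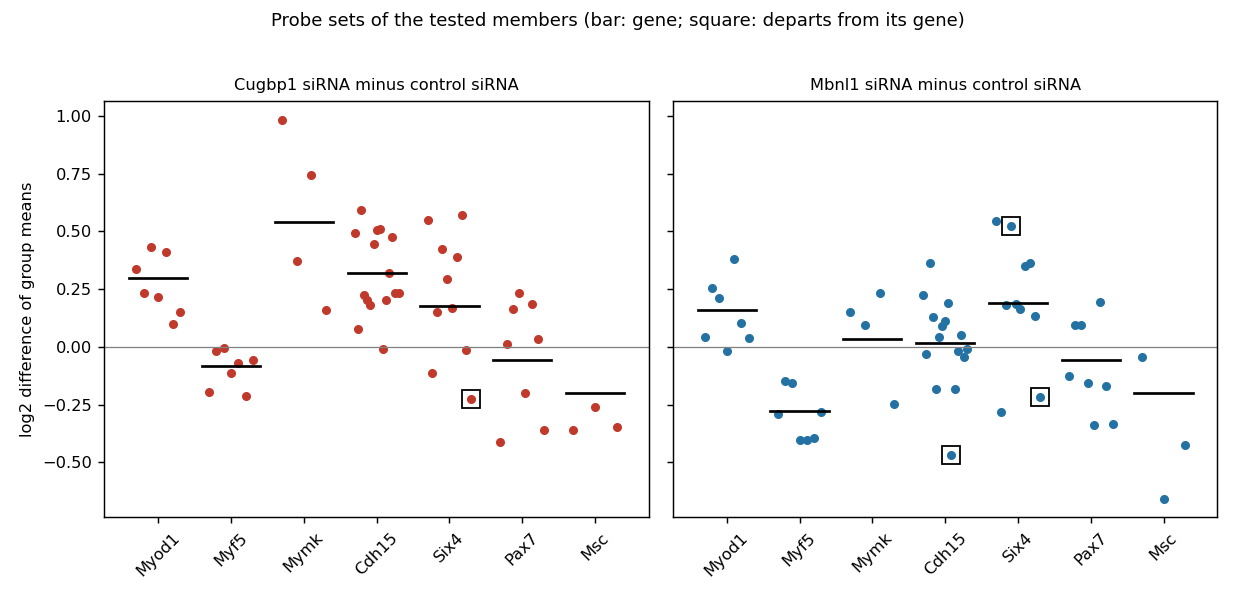
Log2 difference of group means for each kept probe set of the 7 tested genes, ordered by signal within a gene, after Cugbp1 siRNA (left) and Mbnl1 siRNA (right), each minus control. Bars are the gene's difference and squares mark the probe sets that departed from their gene, 1 on the left (Six4, -0.23) and 3 on the right (Six4, 0.52 and -0.22, and Cdh15, -0.47).

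Partners and opponents of the muscle regulatory factors were also measured. Among the E proteins and MEF2 and other partners, 4 of 9 tested genes rose after Cugbp1 siRNA and 0 fell (median 0.16), and 6 rose and 0 fell after Mbnl1 siRNA (median 0.13). In both comparisons 3 rose and 0 fell with arrays centred on the median gene value. Tcf4, an E protein that pairs with MyoD, rose by 0.49 after Cugbp1 siRNA and by 0.50 after Mbnl1 siRNA. Tcf12, another E protein, rose by 0.25 after Cugbp1 siRNA and by 0.27 after Mbnl1 siRNA. The MEF2 factor Mef2a rose by 0.28 after Cugbp1 siRNA and by 0.31 after Mbnl1 siRNA. Tcf3 rose by 0.19 after Cugbp1 siRNA and by 0.13 after Mbnl1 siRNA, and Mef2c rose by 0.23 after Mbnl1 siRNA, none of these called with arrays centred on the median gene value. Between the siRNAs the median difference of the list was -0.01. The share of the list called was 44.4% after Cugbp1 siRNA, beside 38.7% of all genes, and 66.7% after Mbnl1 siRNA, beside 41.5%.

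Among inhibitors of these factors, 6 of 14 rose and 1 fell after Cugbp1 siRNA (median 0.14), and 5 rose and 1 fell after Mbnl1 siRNA (median 0.04). Called genes made up 50% of the list after Cugbp1 siRNA (38.7% of all genes) and 42.9% after Mbnl1 siRNA (41.5% of all genes). When arrays were centred on the median gene value, 4 rose and 2 fell after Cugbp1 siRNA, and 5 rose and 3 fell after Mbnl1 siRNA. Hey1, a Notch target that represses myogenesis, rose by 0.54 after Cugbp1 siRNA and by 0.57 after Mbnl1 siRNA. Hes1, another Notch target, rose by 0.33 after Cugbp1 siRNA and was 0.29 higher there than after Mbnl1 siRNA. Zeb1 rose by 0.26 after Cugbp1 siRNA and by 0.22 after Mbnl1 siRNA. Snai1 rose by 0.25 after Cugbp1 siRNA, without a call under 2 other scalings. The E-box repressor Snai2 rose by 0.23 after Cugbp1 siRNA (not called when centred on the median gene value) and by 0.36 after Mbnl1 siRNA. After Mbnl1 siRNA the dominant negative helix-loop-helix protein Id3 rose by 0.31, whereas Twist1, which holds back MyoD, fell by 0.37. Twist2 was 0.20 higher after Cugbp1 siRNA than after Mbnl1 siRNA (not called with arrays centred on the median gene value).

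Among homeobox factors and other regulators upstream of the muscle factors, 11 of 18 could be tested. After Cugbp1 siRNA 1 rose and 3 fell (median -0.07), and after Mbnl1 siRNA 3 rose and 4 fell (median -0.10). Called genes made up 36.4% of the list after Cugbp1 siRNA (38.7% of all genes) and 63.6% after Mbnl1 siRNA (41.5% of all genes). With arrays centred on the median gene value, 0 rose and 3 fell after Cugbp1 siRNA, and 3 rose and 5 fell after Mbnl1 siRNA. Eya2, a co-activator of Six4 and its relatives, fell by 0.17 after Cugbp1 siRNA and by 0.32 after Mbnl1 siRNA, the first not called with arrays centred on their median over all probe sets. Eya4 rose by 0.16 after Cugbp1 siRNA and by 0.36 after Mbnl1 siRNA, the first of these not called under 2 other scalings. The relative Six5 fell by 0.28 after Cugbp1 siRNA, opposite in sign to Six4. Rbpj, the DNA-binding partner of Notch, fell by 0.28 after Cugbp1 siRNA, and its difference of Cugbp1 siRNA from Mbnl1 siRNA was -0.32. After Mbnl1 siRNA, Pitx3 fell by 0.26 (not called under that same centring) and Met, the receptor for hepatocyte growth factor, rose by 0.24.

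Among chromatin cofactors of MyoD, 4 of 16 rose and 0 fell after Cugbp1 siRNA, and 4 rose and 1 fell after Mbnl1 siRNA (median 0.08 in both). Called genes made up 25% of the list after Cugbp1 siRNA (38.7% of all genes) and 31.2% after Mbnl1 siRNA (41.5% of all genes). With arrays centred on the median gene value 1 rose and 1 fell after Cugbp1 siRNA, and 0 rose and 2 fell after Mbnl1 siRNA, so the direction of this list depends on the scaling. Smarcd3, a SWI/SNF subunit recruited by MyoD, rose by 0.23 after Cugbp1 siRNA. Hdac1 rose by 0.18 there. Ep300 rose by 0.14 after either siRNA, and Prmt5 by 0.14 after Cugbp1 siRNA and by 0.15 after Mbnl1 siRNA. After Mbnl1 siRNA, Sirt1 rose by 0.21 and Crebbp by 0.19, and Mapk12, the p38 gamma kinase, fell by 0.20. Of these, Smarcd3 and Mapk12 were also called with arrays centred on the median gene value, and the others were not. Mapk12 was 0.17 higher after Cugbp1 siRNA than after Mbnl1 siRNA.

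Among satellite cell surface and adhesion genes, 7 of 19 rose and 2 fell after Cugbp1 siRNA, and 8 rose and 2 fell after Mbnl1 siRNA (median 0.14 in both). Called genes made up 47.4% of the list after Cugbp1 siRNA (38.7% of all genes) and 52.6% after Mbnl1 siRNA (41.5% of all genes). With arrays centred on the median gene value, 4 rose and 3 fell after Cugbp1 siRNA, and 6 rose and 3 fell after Mbnl1 siRNA. Cxcr4, the receptor for the chemokine Cxcl12, rose by 0.64 after Cugbp1 siRNA and by 0.49 after Mbnl1 siRNA. N-cadherin (Cdh2), another cadherin of myoblasts, rose by 0.31 after Cugbp1 siRNA and by 0.35 after Mbnl1 siRNA. Ncam1 rose by 0.31 after Cugbp1 siRNA and by 0.30 after Mbnl1 siRNA. Fgfr1 rose by 0.30 after Cugbp1 siRNA and by 0.23 after Mbnl1 siRNA. Cd34, a sialomucin found on quiescent satellite cells, rose by 0.88 after Mbnl1 siRNA (adjusted p = 1.767e-05), and the value after Cugbp1 siRNA was -0.02 (adjusted p = 0.807). Between the siRNAs Cd34 differed by -0.90 (adjusted p = 5.058e-05), a difference opposite in sign to those of Mymk and Cdh15. Fgfr4 and Sdc4 were 0.19 and 0.18 higher after Cugbp1 siRNA than after Mbnl1 siRNA, and Itgb1 differed by -0.19, with Sdc4 not called when arrays were centred on the median gene value. Against control, Fgfr4 differed by -0.09 after Cugbp1 siRNA, without a call, and by -0.29 after Mbnl1 siRNA (limma adjusted p = 0.00131).

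Among fusion genes, 7 of 15 rose and 3 fell after Cugbp1 siRNA (median 0.11), and 5 rose and 3 fell after Mbnl1 siRNA (median 0.01). Called genes made up 66.7% of the list after Cugbp1 siRNA (38.7% of all genes) and 53.3% after Mbnl1 siRNA (41.5% of all genes). Centred on the median gene value, 3 rose and 4 fell after Cugbp1 siRNA, and 3 rose and 5 fell after Mbnl1 siRNA, so the balance of this list depends on the scaling. Mymx, the micropeptide that works with myomaker in fusion, moved against Mymk after Cugbp1 siRNA, where it fell by 0.46 (limma adjusted p = 0.00305). After Mbnl1 siRNA Mymx fell by 0.24 (adjusted p = 0.0484, or 0.0681 with arrays centred on their median over all probe sets), while Mymk differed by 0.03 without a call. Between the siRNAs Mymx differed by -0.23 (adjusted p = 0.1375). Jam3, an adhesion molecule, rose by 0.44 after Cugbp1 siRNA and by 0.47 after Mbnl1 siRNA. The receptor Cdon rose by 0.35 after Cugbp1 siRNA and by 0.20 after Mbnl1 siRNA, and its relative Boc by 0.23 after Cugbp1 siRNA and by 0.33 after Mbnl1 siRNA. The guanine exchange factor Dock1 rose by 0.30 after Cugbp1 siRNA and by 0.18 after Mbnl1 siRNA. Cdon and Dock1 after Mbnl1 siRNA and Boc after Cugbp1 siRNA were not called with arrays centred on the median gene value. Nephrin (Nphs1) fell by 0.29 after either siRNA, and the adaptor Crk by 0.25 after Mbnl1 siRNA. Crk and Rac1 were 0.33 and 0.20 higher after Cugbp1 siRNA than after Mbnl1 siRNA, and Cd9 differed by -0.19.

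Among early differentiation targets, 8 of 23 rose and 2 fell after Cugbp1 siRNA (median 0.10), and 6 rose and 4 fell after Mbnl1 siRNA (median 0.13). The share called was 43.5% in both comparisons, near the 38.7% and 41.5% of all genes. Centred on the median gene value, 2 rose and 3 fell after Cugbp1 siRNA, and 4 rose and 5 fell after Mbnl1 siRNA, so the balance of this list too depends on the scaling. Nebulin (Neb) rose by 0.41 after Cugbp1 siRNA and by 0.45 after Mbnl1 siRNA. The myosin light chain Myl1 rose by 0.31 after Cugbp1 siRNA and by 0.38 after Mbnl1 siRNA. The fast troponin I Tnni2 fell by 0.36 after Cugbp1 siRNA and by 0.33 after Mbnl1 siRNA. Embryonic myosin (Myh3) rose by 0.36 after Cugbp1 siRNA, and Tnnt2 by 0.19 after Cugbp1 siRNA and by 0.35 after Mbnl1 siRNA. After Cugbp1 siRNA, none of Myl1, Myh3 and Tnnt2 was called with arrays centred on the median gene value. The acetylcholine receptor subunits Chrng and Chrnd differed in sign between the siRNAs: Chrng rose by 0.23 after Cugbp1 siRNA (adjusted p = 0.0498) and fell by 0.31 after Mbnl1 siRNA (adjusted p = 0.0153), and Chrnd rose by 0.14 after Cugbp1 siRNA (adjusted p = 0.0456) and fell by 0.28 after Mbnl1 siRNA (adjusted p = 0.00193). Both rises lost their call with repeated quantile normalisation (adjusted p = 0.0857 and 0.0912) and with arrays centred on the median gene value (0.204 and 0.327). Between the siRNAs they differed by 0.54 (adjusted p = 0.00357) and 0.42 (adjusted p = 0.000727), and Cdkn1a, a cell cycle inhibitor of differentiating myoblasts, by 0.23 (not called with arrays centred on the median gene value).

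**Figure D4:**
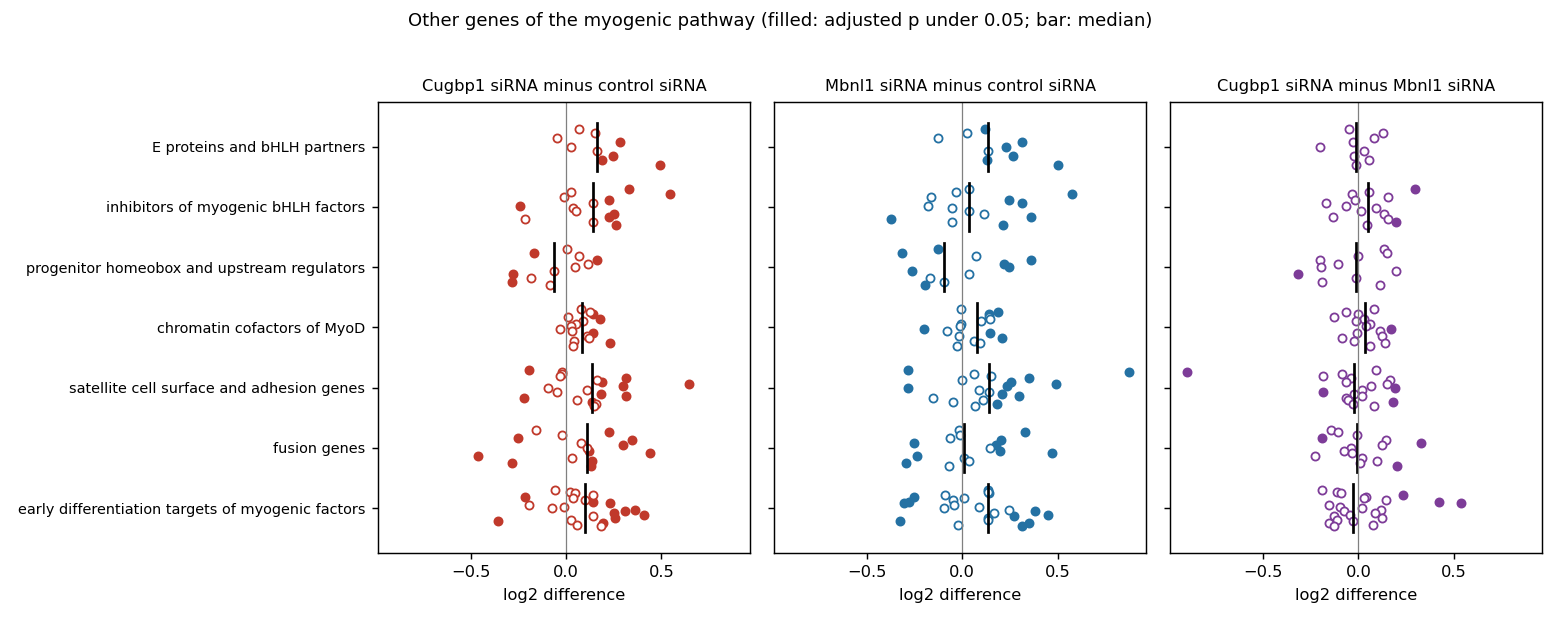
Log2 differences of the tested genes in the 7 lists, with Cugbp1 siRNA against control, Mbnl1 siRNA against control and Cugbp1 siRNA against Mbnl1 siRNA from left to right (filled points, adjusted p under 0.05; bars, list medians). Between the siRNAs Cd34 at -0.90 and Chrng at 0.54 lie farthest out in their lists.

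The genes most like Mymk, Cdh15 and Myod1 over the 9 arrays were sought by the root mean square difference of profiles centred on their own mean. For Mymk, whose own profile varied by 0.26, the nearest were Plpp3 (0.079), Med18 (0.083) and Tmem38b (0.084). Plpp3, a lipid phosphatase, had a log2 difference of 0.50 after Cugbp1 siRNA and of -0.01 after Mbnl1 siRNA. For Cdh15 (own variation 0.17) they were Mrps35 (0.040), Cbl (0.047) and Cand2 (0.055), with log2 differences of 0.30, 0.33 and 0.39 after Cugbp1 siRNA. For Myod1 (own variation 0.15) they were Ccdc167 (0.043), Vash2 (0.046) and Ryr1 (0.058), the calcium release channel of muscle. These are descriptions over 9 arrays that share a platform and a normalisation.

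Marker lists of cell types were summed on each array, in log2 of the summed intensities. The 7 tested myoblast markers of 8 gave 13.75 to 13.78 after Cugbp1 siRNA, 13.66 to 13.80 after Mbnl1 siRNA and 13.70 to 13.72 after control siRNA, and include Myod1, Myf5, Cdh15 and Pax7. The strongest signals in this sum were Chrna1 and Des, at 12.28 and 11.88 after control siRNA, and neither was called in any comparison. The sum therefore says little about the weaker genes in it. The 5 tested markers of differentiated muscle, of 8, gave 10.19 to 10.26 after Cugbp1 siRNA, 10.20 to 10.39 after Mbnl1 siRNA and 10.11 to 10.23 after control siRNA, with Myog, Mylpf and Myf6 too weak to test. The 3 tested fibroblast markers of 6 gave 10.60 to 10.68 after Cugbp1 siRNA, 10.84 to 11.14 after Mbnl1 siRNA and 10.54 to 10.61 after control siRNA. Their sum was thus highest after Mbnl1 siRNA, with Tcf21, Lum and Thy1 too weak to test. Pdgfra averaged 7.63 after Cugbp1 siRNA, 7.91 after Mbnl1 siRNA and 7.12 after control siRNA, and Dcn 9.91 after Cugbp1 siRNA, 10.38 after Mbnl1 siRNA and 9.90 after control siRNA. The third, Col1a1, averaged 8.77 after Cugbp1 siRNA, 8.71 after Mbnl1 siRNA and 8.77 after control siRNA, with no call. The 5 adipocyte and osteoblast markers of 8 gave 10.94 to 11.09 after Cugbp1 siRNA, 11.04 to 11.10 after Mbnl1 siRNA and 11.02 to 11.09 after control siRNA. After Cugbp1 siRNA 0 of the 5 were called higher and 1 lower (38.7% of all genes called). After Mbnl1 siRNA 1 was higher and 2 lower (41.5% of all genes), or 0 and 3 with arrays centred on the median gene value. There Pparg, the strongest of the 5, differed by 0.22, Alpl by -0.23 and Sp7 by -0.30, so this sum hides opposite signs. The 12 haematopoietic, endothelial, epithelial and neural markers of 16 gave 11.50 to 11.59 after Cugbp1 siRNA, 11.65 to 11.70 after Mbnl1 siRNA and 11.73 to 11.77 after control siRNA, lowest after Cugbp1 siRNA. Of that list Cdh5, Kdr and Epcam were too weak to test. Some tested genes had few probe sets above the filter: 5 of 53 for Ptprc, 3 of 22 for Pecam1 and 3 of 31 for Tek. These averaged 7.42, 7.98 and 7.36 after control siRNA, so the sum includes weak signals. Others kept most of theirs, such as Cd68 with 10 of 10 and Tubb3 with 8 of 9. The tested genes of that list did not all move together. After Cugbp1 siRNA 0 were called higher and 6 lower than control, and after Mbnl1 siRNA 2 higher and 5 lower. After Mbnl1 siRNA the log2 difference was 0.49 for Cd68 and 0.18 for Tubb3, but -0.42 for Pecam1 and -0.35 for Csf1r. Their sum therefore does not give the direction of each gene. The part of the markers of all these lists in the results was not tested.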

How the data were processed

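The authors deposited a linear intensity for each of 1195555 probe sets on 9 arrays. Per the submitters' processing notes these were made by RMA in Affymetrix Expression Console, and mm9 is the build named; their versions are not stated in these sources. Per the labels' protocols, 100 ng of total RNA was labelled. Groups and replicate numbers come from the sample titles. Intensities were log2-transformed and not normalised again. Symbols came from the platform annotation, updated through RefSeq (GRCm38.p6): 17988 of 22264 were current, 4213 updated and 63 kept. No array coordinates were used.

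Probe sets whose mean over 9 arrays reached the 75th percentile (log2 7.00) were kept, and genes with at least 3 of them were summarised by median polish; limma 3.58.1 (R 4.3.3) fitted them with 1 mean per group and Benjamini-Hochberg adjustment. Departures of probe sets from their gene were fitted with a variance trend in genes with at least 4 kept probe sets. In simulated data with the spread of these arrays, 67, 67 and 66 genes were changed 1.2-fold, 1.5-fold and 2-fold. The gene test (12646 genes) recovered 26.9%, 83.6% and 97.0% of them. The probe-set test (158713 probe sets) recovered 28.4%, 64.2% and 95.5% of 1.5-fold, 2-fold and 3-fold changes. The gene test called 146 genes in the simulation, against 4893 after Cugbp1 siRNA in the data. Its adjusted threshold was therefore stricter there, and these rates do not give the sensitivity of the tests reported here. Precision is limited by 3 arrays per group.

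All 9 members are named. From each pathway list, at most 4 called genes with the largest change were named per comparison; where a gene named for one siRNA was called against control after both, both values are given. Other values of Chrng, Chrnd, Mymx, Cd34 and Fgfr4 were chosen after the values were seen. The 3 members with the largest range of group means got 3 nearest profiles each. Members and lists were chosen with earlier results of these data known. Alternatives covered the filter, scaling, gene summary, samples in the fit, variance model, replicate block and each array left out; centring on the median gene value was added after the data were seen. Same-numbered arrays did not deviate together (correlations -0.10 to 0.12), so numbers were not taken as pairs.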

Additional observations from a re-analysis of the deposited data

Results flagged for a closer look

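The responses of 2 genes differed between the siRNAs by the direct test of that difference. The change of Mymk after Cugbp1 siRNA exceeded that after Mbnl1 siRNA by 0.51 on the log2 scale (limma adjusted p = 0.00146), with all 3 Cugbp1 siRNA arrays above all 3 Mbnl1 siRNA arrays. The change of Cdh15 exceeded it by 0.30 (limma adjusted p = 0.0213), again with no overlap of arrays. Both changes are measured from the same control arrays, which cancel in the difference.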

How the results depend on the processing

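Of the log2 differences of the 7 genes under all alternatives, 321 kept direction and call, 23 lost a call, 10 gained one and 24 turned sign. The rises of Myod1, Mymk and Cdh15 after Cugbp1 siRNA and the difference of Mymk between the siRNAs kept their calls under all 18. The limits are 3 arrays per group, 3 or 4 kept probe sets for Msc and Mymk, too few probe sets of Myog and Myf6 above the filter, and a direction of small changes that depends on scaling. Causes were not tested.

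Of the genes called, 67.3% were higher after Cugbp1 siRNA and 64.8% after Mbnl1 siRNA; the shares were 78.1% and 74.7% with arrays centred on their median over all probe sets and 37.2% and 40.8% centred on the median gene value. After Mbnl1 siRNA, 1 member was called with a filter at the 50th percentile and 1 with repeated quantile normalisation, in place of 2. Between the siRNAs, 1 was called with no filter (639 genes in all, in place of 1181) and 1 with only the 2 groups in the fit. Limma's diffSplice called 3 probe sets after Cugbp1 siRNA and 5 after Mbnl1 siRNA, in place of 1 and 3. With the replicate block, 4, 2 and 2 members were called in the 3 comparisons, 4539, 4982 and 875 genes, and 1, 2 and 0 probe sets; it changed no call of a member. Leaving out each array gave 3 to 4, 0 to 2 and 1 to 3 members, 3444 to 5319, 3774 to 5759 and 628 to 1157 genes, and 1 to 2, 1 to 3 and 0 to 0 probe sets. After Mbnl1 siRNA 0 members were called without Mbnl1 siRNA replicate 3 (Myf5 and Six4 both lost) and 1 without Mbnl1 siRNA replicate 2, control replicate 1 or control replicate 2. Between the siRNAs, genes fell to 692, 662, 628 and 636 without Cugbp1 siRNA replicate 2 and Mbnl1 siRNA replicates 1, 2 and 3. For probe sets, 2 were called after Cugbp1 siRNA without Cugbp1 siRNA replicate 1, and 1 after Mbnl1 siRNA without Mbnl1 siRNA replicate 3.

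Most calls gained or lost are given above with each gene, and the rest follow. Msc after Cugbp1 siRNA gained a call with a filter at the 50th percentile (-0.39, limma adjusted p = 0.0191) and no filter (-0.36, adjusted p = 0.0201). After Cugbp1 and Mbnl1 siRNA, Six4 lost its calls with that filter (adjusted p = 0.0544 and 0.0598) and with quantile normalisation (0.0640 and 0.0736). Six4 after Cugbp1 siRNA also lost its call with only the 2 groups (0.0666). Cdh15 between the siRNAs lost its call with no filter (0.0747) and with only the 2 groups (0.0530).

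Sign turned for small differences that were not called under either setting. Pax7 after Cugbp1 siRNA was 0.0246 with the 50th percentile filter and 0.0246 with no filter. After Mbnl1 siRNA, Mymk was -0.0002 with quantile normalisation and -0.0423 centred on the median gene value, and -0.0056 and -0.0069 without control replicate 1 and Mbnl1 siRNA replicate 1 (-0.0069 to 0.0897 over arrays left out); Cdh15 was -0.0305 and -0.0608 under those scalings and -0.0353 and -0.0146 without Mbnl1 siRNA replicates 1 and 3 (-0.0353 to 0.0927). Between the siRNAs, Six4 was 0.0107 (50th percentile), 0.0488 (no filter), 0.0101 (quantile), 0.0240 (mean of probe sets) and 0.0032 (without Cugbp1 siRNA replicate 3; -0.0322 to 0.0032). Msc was 0.0028 (quantile) and 0.0513 (mean of probe sets), and turned without Cugbp1 siRNA replicate 1 and Mbnl1 siRNA replicates 1 and 3 (-0.0691 to 0.0928). Pax7 was -0.0031 centred on the median gene value, and turned without Cugbp1 siRNA replicates 2 and 3 and Mbnl1 siRNA replicate 2 (-0.0367 to 0.0331).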
